A study of Homo sapiens with 30 samples.

Results

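The interleukin-1 (IL-1) family genes examined were the cytokine genes IL1A, IL1B, IL33 and IL18, the receptor antagonist gene IL1RN, the protease gene CASP1, and IL1RL1, which encodes the IL-33 receptor ST2. IL32, a cytokine gene outside the family by sequence, was examined with them. The genes were chosen by name, with earlier results of these data known, and all 8 were found among the 63138 genes of the count table. The material was hCMEC/D3, an immortalized line of human brain microvascular endothelial cells, profiled by bulk RNA sequencing in 30 libraries that form 10 groups of 3. The direct groups were cells kept for 12 h in serum-free medium (Control) or stimulated with 25 ng/mL of TNFα (TNF), 10 ng/mL of IL-1β (IL1b), 50 ng/mL of C5a, a peptide cut from complement C5 (C5a), or 200 nM of epinephrine (Epinephrine). For the vesicle groups, also labelled 12 h, supernatants of cells from each direct condition were enriched for extracellular vesicles, which were then given to cells of the same line. These groups carry the name of the donor condition with the prefix EV, as in EV-Control. EV-Control cells therefore received vesicles too, and Control cells did not. All groups are 1 cell line and 1 labelled batch, and nothing in the labels says that libraries of a group came from separate cultures, so p-values measure only the spread between these libraries.

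IL-1α and IL-1β are made as precursors and act on the same receptor, IL1R1, which signals with IL1RAP through MYD88 and the IRAK kinases to NF-kappaB. Caspase-1, the product of CASP1, is activated in inflammasomes and cleaves the precursors of IL-1β and IL-18. IL1RN encodes a ligand of IL1R1 that does not signal, and endothelial cells are a target of IL-1 in vessel walls. The sequencing reads report the cells' own IL1B transcript and not the IL-1β protein that was added to the medium.

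Libraries held 16643961 to 22112326 counts over genes, and 14340 to 15196 genes had 10 counts or more. All 10 endothelial markers examined were above 1 CPM on average (counts scaled to library size, with TMM factors that balance the bulk of the genes), and their summed level was 1120 to 1160 CPM in Control, 1080 to 1130 in TNF, 789 to 813 in IL1b, 809 to 840 in C5a, 878 to 935 in Epinephrine and 682 to 842 over the vesicle groups. The 8 monocyte, macrophage and microglia markers summed to 1.73 to 4.72 CPM, with 1 of them above 1 CPM and TYROBP at 0 in every library. The 6 mast cell and T cell markers, of which CPA3 was above 1 CPM, summed to 1.19 to 6.98 CPM. Their sum was 1.4 to 2.7 CPM in Control, 3.41 to 4.67 in TNF and 5.35 to 6.98 in EV-IL1b. The 5 astrocyte and neuron markers, of which GFAP was above 1 CPM, summed to 1.33 to 6.29 CPM. All 6 pericyte and smooth muscle markers were above 1 CPM, and their sums moved with the groups, from 376 to 432 CPM in Control to 466 to 486 in TNF, 326 to 374 in IL1b, C5a and Epinephrine, and 514 to 535 in EV-Epinephrine. The 5 epithelial markers, of which KRT8 and KRT18 were above 1 CPM, summed to 259 to 282 CPM in Control, 160 to 173 in TNF and 349 to 362 in C5a. The part of these marker levels in the results below was not tested, and in bulk RNA a change in cell number and a change in RNA per cell cannot be told apart.

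Sequences upstream of the start sites are shown for IL32, IL1B, IL1A and IL1RL1, because these 4 members were called higher in both TNF and IL1b with log2 fold changes over 1. They come from RefSeq promoter windows on GRCh38.p14, in which 6 of the 8 genes had entries. The longer stretches printed are those of the 250 upstream bases that lie outside annotated exons, in the direction of transcription, and capitals mark motif matches. The motifs searched on both strands were the cyclic AMP response element TGACGTCA, the AP-1 element TGANTCA, the TATA box TATAAA and the NF-kappaB consensus. Of 35116 promoters, 1.65% held the first, 6.57% the second, 10.7% the TATA box and 9.96% the NF-kappaB consensus in their 250 upstream bases. A match is a description of letters and not of binding.
IL32, chr16:3065153-3065296, plus strand: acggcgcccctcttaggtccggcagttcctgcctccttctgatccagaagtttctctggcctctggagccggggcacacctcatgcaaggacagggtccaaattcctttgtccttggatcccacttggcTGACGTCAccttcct
IL1B, chr2:112836904-112837029, minus strand: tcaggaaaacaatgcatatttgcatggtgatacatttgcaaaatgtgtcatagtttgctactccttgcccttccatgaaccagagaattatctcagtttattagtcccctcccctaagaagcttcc
IL1A, chr2:112784591-112784743, minus strand: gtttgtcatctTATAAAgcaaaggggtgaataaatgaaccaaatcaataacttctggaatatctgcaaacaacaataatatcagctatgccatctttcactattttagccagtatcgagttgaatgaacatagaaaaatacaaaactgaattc
IL1RL1, chr2:102311313-102311501, plus strand: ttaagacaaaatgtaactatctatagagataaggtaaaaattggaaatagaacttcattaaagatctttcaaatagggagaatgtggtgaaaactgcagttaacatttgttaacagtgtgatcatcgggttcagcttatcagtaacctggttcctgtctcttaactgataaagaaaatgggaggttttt
IL1RL1, second start, chr2:102337007-102337147, plus strand: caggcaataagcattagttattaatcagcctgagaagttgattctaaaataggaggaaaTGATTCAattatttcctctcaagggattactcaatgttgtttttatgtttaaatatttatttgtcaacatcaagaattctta
The IL32 stretch held TGACGTCA at positions -121 to -114 from the start. Nearer to the start, the IL32 window held overlapping matches to the NF-kappaB consensus on both strands, at -99 to -90 and at -98 to -89, and the first of them is shown here in a 30-base context of which 26 bases, the match included, lie in an annotated exon.
IL32, chr16:3065293-3065322, plus strand: tcctgtactcaGGGAGTTTCCccagccagc
The IL1A stretch held TATAAA at -239 to -234 from its start. The IL1A windows overlap and held the same AP-1 match, TGACTCA, at -105 to -99 in the first and -12 to -6 in the second. The first window also held TGAGTCA at -55 to -49. The match common to both windows lies within an annotated exon and is shown in its 30-base context.
IL1A, chr2:112784487-112784516, minus strand: gcgaagaagacTGACTCAggcttaagctgc
The first IL1RL1 window held TATAAA at -29 to -24, in an annotated exon, and the second held TGATTCA at -191 to -185. The IL1B window of 250 bases held none of the 4 motifs.

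IL1A and IL1B, which lie side by side on the minus strand of chromosome 2 (IL1A, ENSG00000115008, 112773915 to 112784590; IL1B, ENSG00000125538, 112829751 to 112836903; GENCODE 29 on GRCh38), had the highest ratio of their highest to their lowest group mean among the members other than IL33. Both were highest in TNF and lowest in C5a. Both were higher in IL1b, in Epinephrine and in EV-Control than in Control. Both were lower in EV-TNF, EV-IL1b and EV-Epinephrine than in EV-Control.

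IL1B was at 20.8, 14.6 and 22.8 CPM in the Control libraries and at 303, 425 and 344 CPM in the TNF libraries. IL1b libraries held 141, 132 and 135 CPM, and Epinephrine libraries 74.6, 81.9 and 83.2 CPM. C5a libraries held 7.34, 9.62 and 7.98 CPM. No library of these 4 groups overlapped Control, and C5a was the only one of them below it. Against Control, IL1B was 18.5-fold higher in TNF (log2 fold change 4.21 ± 0.163 SE, Benjamini-Hochberg adjusted p = 7.59e-10 by edgeR's quasi-likelihood test). It was 7.06-fold higher in IL1b (2.82 ± 0.162, adjusted p = 5.3e-08) and 4.16-fold higher in Epinephrine (2.06 ± 0.165, adjusted p = 3.94e-06). In C5a it was lower by 1.21 on the log2 scale (-1.21 ± 0.214, adjusted p = 0.00181). All 4 comparisons share the 3 Control libraries, and so do those of the other genes.

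IL1A held 4.12, 2.67 and 4.55 CPM in Control, 35.2, 46.7 and 38.7 CPM in TNF and 13.6, 12.7 and 12.7 CPM in IL1b. It held 8.75, 9.49 and 13 CPM in Epinephrine and 1.24, 0.687 and 1.46 CPM in C5a. As with IL1B, TNF, IL1b and Epinephrine libraries were all above Control and C5a libraries were all below it. The log2 fold change was 3.41 ± 0.166 in TNF (adjusted p = 1.39e-15) and 1.79 ± 0.18 in IL1b (adjusted p = 6.06e-09). It was 1.48 ± 0.184 in Epinephrine (adjusted p = 9.14e-07) and -1.72 ± 0.273 in C5a (adjusted p = 3.59e-05). Per kilobase of exon, IL1B was the more abundant of the pair in all 10 groups, with 6.26 against 1.78 CPM per kilobase in Control and 115 against 18.9 in TNF.

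The number of IL1B counts per IL1A count is given as a description, without a test. It was 5.17 ± 0.251 (SD, n = 3) in Control, 8.87 ± 0.248 in TNF and 10.4 ± 0.134 in IL1b, with no overlap between these 3 groups. It was 7.85 ± 1.26 in Epinephrine, and 8.47 ± 4.8 in C5a, where library 2 stood at 14 and the other two at 5.92 and 5.48. In the vesicle groups the mean was 7.61 ± 3.94 in EV-Control, 9 ± 1.31 in EV-C5a, 10.3 ± 1.01 in EV-Epinephrine, 13.2 ± 1.82 in EV-TNF and 15.1 ± 4.89 in EV-IL1b. The EV-Control libraries had 4.96, 5.73 and 12.1 IL1B counts per IL1A count. In EV-Control, IL1A was at 13.5, 12.4 and 6.51 CPM, while IL1B was at 67.1, 71.4 and 79 CPM. EV-Control library 3 thus held the least IL1A and the most IL1B of its group.

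**Figure D1:**
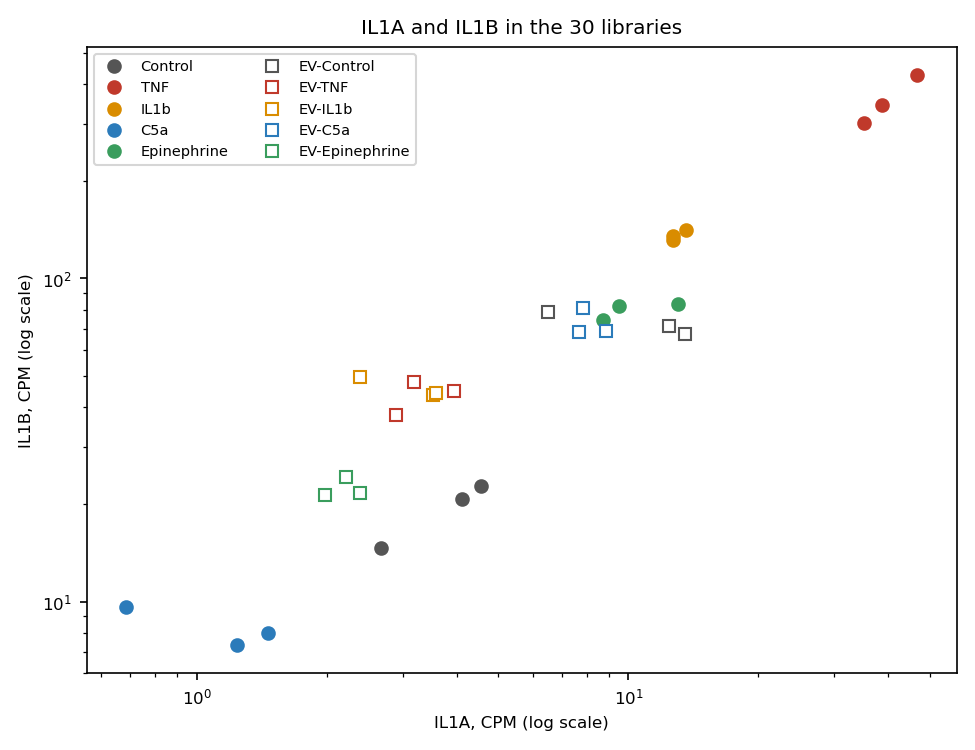
Level of IL1B (vertical, CPM, log scale) against IL1A (horizontal, CPM, log scale) in the 30 libraries, with filled circles for direct groups and open squares for vesicle groups. TNF libraries lie at the upper right (IL1B 303 to 425 CPM), C5a libraries at the lower left (IL1B 7.34 to 9.62 CPM), and EV-TNF, EV-IL1b and EV-Epinephrine below EV-Control.

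EV-Control against Control sets cells given vesicles of unstimulated cells beside cells given serum-free medium alone. IL1B was 3.75-fold higher in EV-Control (log2 fold change 1.91 ± 0.145, adjusted p = 2.05e-09) and IL1A 2.86-fold higher (1.52 ± 0.233, adjusted p = 1.99e-05). All 3 EV-Control libraries were above all 3 Control libraries for both genes. Of the 6 members tested here, IL1A and IL1B rose and CASP1 fell, in a comparison where 12.1% of all genes were called higher and 9.8% lower. IL18 (0.25 ± 0.29, adjusted p = 0.617) and IL1RL1 (0.24 ± 0.3, adjusted p = 0.647) did not pass. With scaling by total counts, 1612 genes were called higher and 2169 lower in place of 2024 and 1635, and the same number of members passed in each direction.

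Relative to EV-Control, IL1B was lower in EV-Epinephrine, at 21.7, 24.3 and 21.3 CPM, with a log2 fold change of -1.69 ± 0.0969 (adjusted p = 2.71e-10). In EV-TNF it held 37.8, 45 and 47.9 CPM (-0.74 ± 0.0894, adjusted p = 1.01e-05), and in EV-IL1b 43.5, 44.1 and 49.7 CPM (-0.67 ± 0.0894, adjusted p = 3.29e-05). All libraries of these 3 groups were below all EV-Control libraries. EV-C5a held 81.2, 68.3 and 68.6 CPM and overlapped EV-Control (log2 fold change 0 ± 0.0859, adjusted p = 0.996). EV-Epinephrine overlapped the Control range of the direct experiment, and EV-TNF and EV-IL1b lay above it.

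IL1A held 2.39, 2.22 and 1.98 CPM in EV-Epinephrine (log2 fold change -2.29 ± 0.22 against EV-Control, adjusted p = 2.02e-09). It held 2.89, 3.94 and 3.18 CPM in EV-TNF (-1.69 ± 0.204, adjusted p = 2.15e-07) and 3.52, 3.59 and 2.39 CPM in EV-IL1b (-1.77 ± 0.207, adjusted p = 1.38e-07). None of these 9 libraries reached the lowest EV-Control library, and EV-TNF and EV-IL1b overlapped Control. EV-C5a libraries, at 7.84, 7.67 and 8.85 CPM, lay within the EV-Control range, and the difference did not pass (-0.41 ± 0.182, adjusted p = 0.627). Without EV-Control library 3 it did (-0.67 ± 0.158, adjusted p = 0.0136).

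The effect of each stimulus on IL1A and IL1B also differed between its direct and its vesicle form when that difference was itself tested. For IL1B, the vesicle log2 fold change minus the direct one was -4.94 ± 0.193 for TNF (adjusted p = 1.91e-15), -3.48 ± 0.193 for IL1b (adjusted p = 3.97e-12) and -3.74 ± 0.203 for Epinephrine (adjusted p = 5.61e-12). It was 1.22 ± 0.228 for C5a (adjusted p = 0.000901). For IL1A the differences were -5.11 ± 0.318, -3.55 ± 0.332 and -3.76 ± 0.347 for TNF, IL1b and Epinephrine (adjusted p = 2.98e-13, 2.72e-09 and 4.12e-09). For C5a the IL1A difference of 1.32 ± 0.401 (adjusted p = 0.0307) was lost without Control library 1 or 3, C5a library 1 or 2, or EV-C5a library 3, and when its 4 groups were fitted alone (adjusted p up to 0.117). These tests use both control groups, whose own IL1A and IL1B levels differed as given above.

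IL32 (ENSG00000008517, chromosome 16, 3065297 to 3082192, plus strand), whose product stimulates other cytokines in immune cells, varied little between the replicates of the Control, TNF and IL1b groups. It held 60.7, 61.7 and 59.9 CPM in Control, 483, 466 and 481 CPM in TNF and 148, 147 and 146 CPM in IL1b. TNF and IL1b libraries were far above Control and did not overlap each other. IL32 was 7.84-fold higher in TNF (log2 fold change 2.97 ± 0.0528, adjusted p = 2.54e-32) and 2.43-fold higher in IL1b (1.28 ± 0.0521, adjusted p = 7.41e-21). Per kilobase it was the most abundant member in TNF, at 149 CPM per kilobase against 115 for IL1B.

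Unlike IL1A and IL1B, IL32 did not pass in Epinephrine, at 52, 62.2 and 55.4 CPM (log2 fold change -0.1 ± 0.0543, adjusted p = 0.211). Without Epinephrine library 2, the highest of the group, it was lower (-0.16 ± 0.0503, adjusted p = 0.0104). C5a libraries held 52.5, 51 and 48.5 CPM, all below Control (-0.25 ± 0.0547, adjusted p = 0.000632). EV-Control held 69.7, 67.4 and 59.8 CPM and overlapped Control (0.11 ± 0.0536, adjusted p = 0.141). Without EV-Control library 3 that difference passed (0.18 ± 0.057, adjusted p = 0.0202).

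In the vesicle libraries the differences of IL32 were small. It was lower than in EV-Control by 0.32 on the log2 scale in EV-TNF (-0.32 ± 0.0571, adjusted p = 3.2e-05). In EV-IL1b it was lower by 0.34 (-0.34 ± 0.0574, adjusted p = 1.13e-05), and in EV-Epinephrine by 0.31 (-0.31 ± 0.0573, adjusted p = 4.36e-05). The libraries of these 3 groups spanned 50.4 to 55.2 CPM, below the lowest EV-Control library. In EV-C5a, at 58.1 to 60.6 CPM, it did not pass (-0.14 ± 0.0566, adjusted p = 0.556).

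IL1RL1 (ENSG00000115602, chromosome 2, 102311502 to 102352037, plus strand) encodes ST2, the receptor for IL-33. It was near 1 CPM in Control, with 1, 1.12 and 1.18 CPM, and was the only member that was higher in IL1b than in TNF. IL1b libraries held 16.2, 15.5 and 14.5 CPM and TNF libraries 10.3, 8.75 and 11.9 CPM. Epinephrine libraries, at 8.59, 7.29 and 6.7 CPM, lay below those of TNF. The 3 groups did not overlap each other or Control. IL1RL1 was 14-fold higher in IL1b than in Control (log2 fold change 3.81 ± 0.197, adjusted p = 7.82e-18) and 9.32-fold higher in TNF (3.22 ± 0.206, adjusted p = 8.15e-16). The difference of IL1b from TNF also passed (0.59 ± 0.143, adjusted p = 0.00103). C5a libraries ranged from 0.74 to 1.65 CPM, around the Control values, and the difference did not pass (0.01 ± 0.292, adjusted p = 0.989).

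In the vesicle groups IL1RL1 stayed at low levels, from 0.812 to 2.15 CPM over 15 libraries. It passed in none of the 4 vesicle comparisons, with log2 fold changes of -0.27 to 0.29 and SEs of 0.332 to 0.348, and the vesicle effect minus the direct effect was -3.62 ± 0.376 for IL1b (adjusted p = 5.59e-12). Exons of IL1RL1 overlap those of IL18R1 on the same strand, so counts of the pair may be shared. IL18R1, which encodes a receptor chain for IL-18, held 0.473 ± 0.236 CPM in Control (SD, n = 3), 3.49 ± 0.13 in TNF, 3.94 ± 0.467 in IL1b and 1.89 ± 0.25 in Epinephrine. IL18R1 also rose in these 3 groups, by 2.88, 3.06 and 2 on the log2 scale (adjusted p = 4.02e-09, 1.25e-09 and 5.16e-05). How many counts the 2 genes share was not tested.

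IL33 (ENSG00000137033, chromosome 9, 6215786 to 6257983, plus strand), the ligand of ST2, was barely detected. There were 3 counts in all 30 libraries together, 1 each in Control, TNF and EV-Control. A count of 0 in a library allows up to 3 counts. That is 0.154 to 0.177 CPM in a library of its group's average size, and the limit covers counting error only. IL33 was not tested.

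IL18 (ENSG00000150782, chromosome 11, 112143251 to 112164117, minus strand) was expressed at a low level, with 1.48, 1.65 and 1.29 CPM in Control. TNF libraries held 5.34, 4.46 and 4.96 CPM, all above every other library of the series. The log2 fold change in TNF was 1.73 ± 0.257 (adjusted p = 5.02e-07). Epinephrine libraries held 2.15, 3.45 and 2.39 CPM, also above Control (0.85 ± 0.269, adjusted p = 0.0179). That call was lost without Control library 1 (adjusted p = 0.0507), Control library 3 (0.0671) or Epinephrine library 2 (0.112). IL18 did not pass in IL1b, at 1.44 to 2.02 CPM (0.24 ± 0.284, adjusted p = 0.52), or in C5a (-0.11 ± 0.294, adjusted p = 0.841). It passed in none of the vesicle comparisons, where EV-TNF libraries held 1.93, 2.3 and 3.63 CPM (0.57 ± 0.275, adjusted p = 0.185).

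CASP1 (ENSG00000137752, chromosome 11, 105025443 to 105035250, minus strand) was the most abundant member in Control per kilobase, at 22.2 CPM per kilobase against 18.9 for IL32. It held 78.8, 83.2 and 83.8 CPM in Control and 141, 147 and 138 CPM in TNF, with no overlap. It was 1.73-fold higher in TNF (log2 fold change 0.79 ± 0.0539, adjusted p = 4.49e-15). The increases in IL1b (0.17 ± 0.0545, adjusted p = 0.00937) and Epinephrine (0.19 ± 0.0544, adjusted p = 0.00967) were small. In IL1b the call was lost with scaling by total counts (0.09, adjusted p = 0.178) and without IL1b library 1 (0.14, adjusted p = 0.0629). In Epinephrine it was lost without Control library 1 (0.17, adjusted p = 0.0573) and when Control and Epinephrine were fitted alone (0.18, adjusted p = 0.065). In C5a, at 75.5 to 79.8 CPM, CASP1 did not pass (-0.08 ± 0.055, adjusted p = 0.354). CASP1 has a near-identical shorter neighbour, CARD16, and reads of the pair may be split between them.

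Every vesicle group had a CASP1 mean below that of Control, from 59.4 ± 2.4 CPM in EV-Epinephrine to 71.4 ± 2.45 in EV-TNF (SD, n = 3). EV-Control was lower than Control by 0.24 on the log2 scale (-0.24 ± 0.0542, adjusted p = 0.000445), and EV-Epinephrine was lower than EV-Control (-0.22 ± 0.0543, adjusted p = 0.00206). EV-TNF, EV-IL1b and EV-C5a overlapped EV-Control and did not pass.

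IL1RN (ENSG00000136689, chromosome 2, 113107214 to 113134016, plus strand), the receptor antagonist gene, was close to the detection limit outside TNF. Control libraries held 2, 2 and 0 counts, TNF libraries 18, 12 and 27, IL1b libraries 1, 0 and 4, C5a libraries 0, 1 and 3, and Epinephrine libraries 2, 5 and 4. TNF libraries did not overlap any other group, and in the vesicle groups no library held over 7 counts. From the summed counts, 57 in TNF and 4 in Control, IL1RN was 15.5-fold higher in TNF (95% interval 5.74 to 58.9, counting error only). IL1RN passed the low-count filter only through TNF, the group where it is high, so its level there is a description and no p is given for it. It did not pass in IL1b, C5a or Epinephrine (adjusted p = 0.87, 0.982 and 0.363), and it was not tested in the vesicle libraries.

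**Figure D2:**
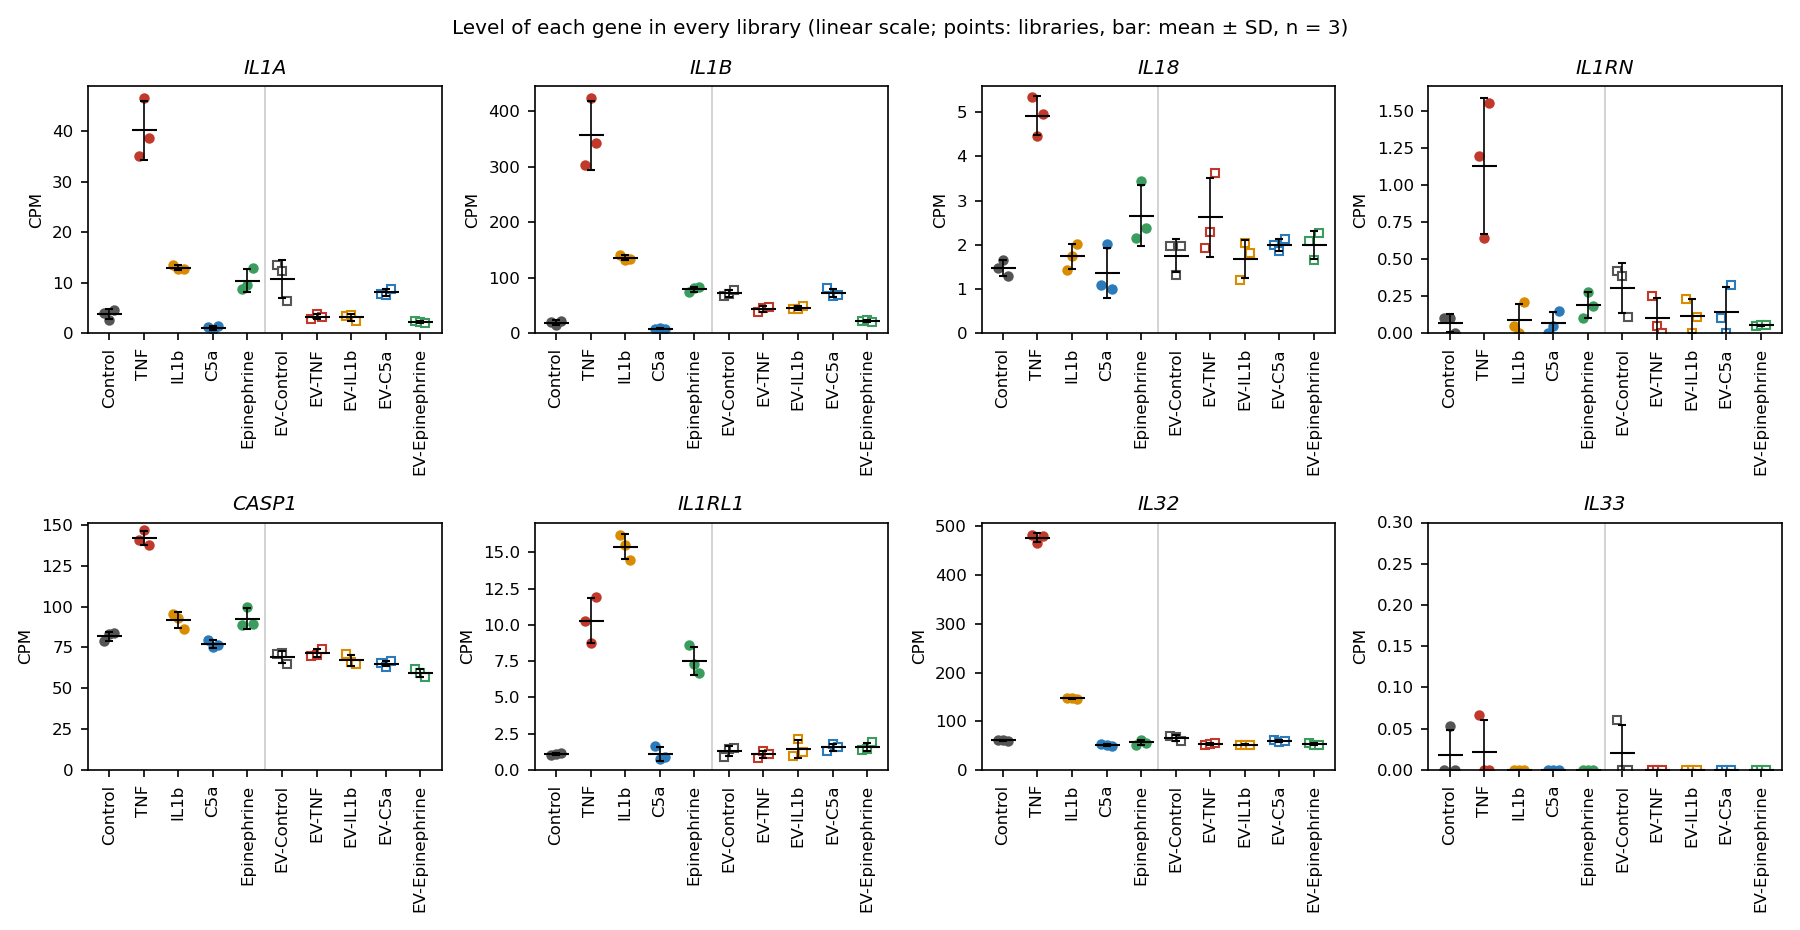
Level of the 8 genes in CPM (vertical, linear scale) in the 10 groups, with 1 point per library, a bar at the mean and whiskers of 1 SD (n = 3), filled for direct and open for vesicle groups. TNF is highest for IL1A, IL1B, IL18, IL1RN, CASP1 and IL32, IL1b is highest for IL1RL1 (15.4 CPM on average), and IL33 is at or near 0 in every library.

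Counted together and without IL1RN, the 6 tested members were all higher in TNF than in Control, where 27.5% of all 15908 genes tested were called higher. In IL1b 5 of 6 were higher, against 24% of all genes. In Epinephrine 5 of 6 were higher, against 13.5%, and in C5a 3 of 6 were lower, against 10.8%. Their median log2 fold changes were 3.1 in TNF, 1.54 in IL1b, 1.17 in Epinephrine and -0.18 in C5a, with medians over all genes of -0.012, -0.011, 0.009 and -0.002. Since the members were chosen with results known, these counts are descriptions.

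IL1b against TNF, which 41.4% of all genes passed in either direction, had 5 of these 6 members lower in IL1b and IL1RL1 higher. IL32 was lower by 1.69 on the log2 scale (-1.69 ± 0.0492, adjusted p = 2.23e-25), IL1A by 1.62 (-1.62 ± 0.14, adjusted p = 3.48e-10) and IL18 by 1.49 (-1.49 ± 0.25, adjusted p = 6.88e-06). IL1B was lower by 1.39 (-1.39 ± 0.135, adjusted p = 6.49e-06) and CASP1 by 0.62 (-0.62 ± 0.0534, adjusted p = 4.75e-12). IL1RN had 57 counts in TNF and 5 in IL1b, a ratio of 12.8 (95% interval 5.17 to 40.9).

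With scaling by total counts the median of all genes in TNF was at -0.288, and 2283 genes were then called higher and 7783 lower, against 4369 and 4019 with TMM scaling. The 6 tested members other than IL1RN stayed higher in TNF under that scaling. For IL1b the split was 2919 higher and 4637 lower against 3824 and 3595, and for IL1b against TNF, with a median of 0.205, it was 6504 and 2041 against 3168 and 3412.

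In the vesicle libraries 3 of 6 tested members were lower in EV-TNF, where 7.42% of all 15918 genes were called lower, and 3 of 6 in EV-IL1b, against 8.14%. In both these were IL1A, IL1B and IL32. In EV-Epinephrine 4 of 6 were lower, against 10.5%, with CASP1 as the addition. No member was higher in any of the 4 vesicle comparisons. In EV-C5a no member was called by edgeR or by DESeq2, against 0.0503% of all genes called in either direction, and IL1A and IL32 were the 2 members with an unadjusted p under 0.05 (0.0317 and 0.017). These 4 comparisons share the 3 EV-Control libraries.

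**Figure D3:**
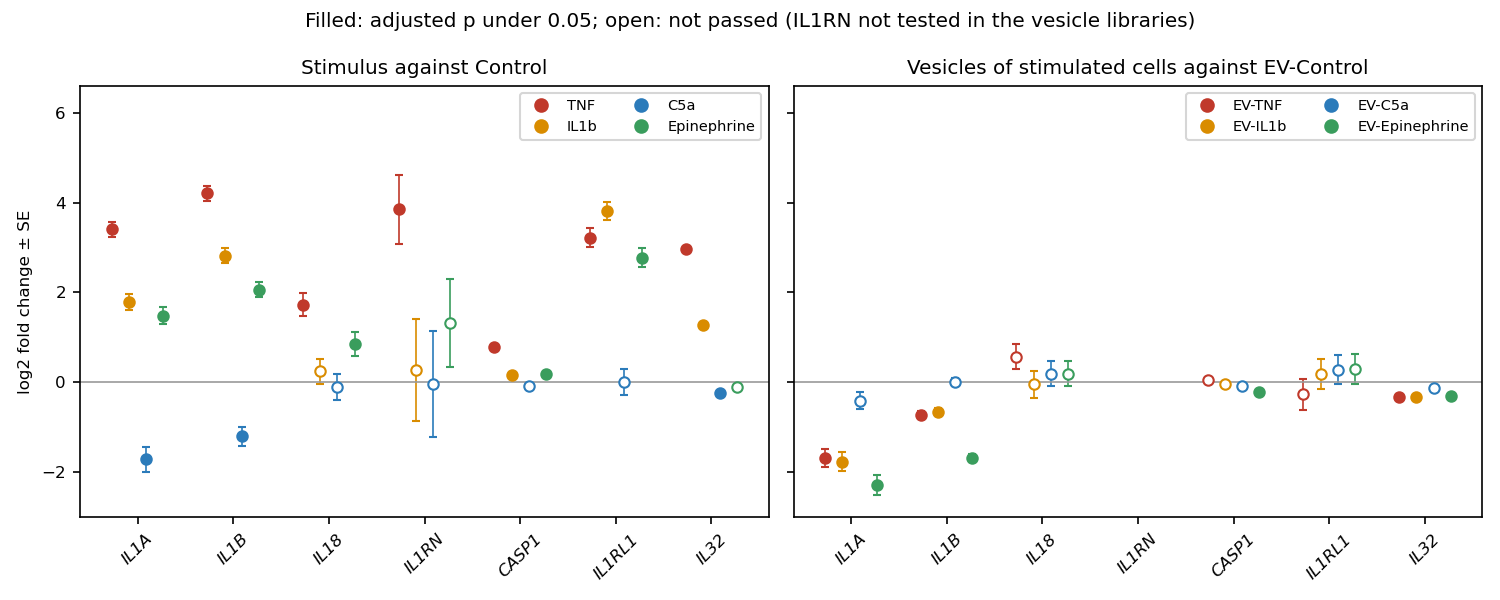
Log2 fold change with its SE (vertical) for the tested members, each stimulus against Control on the left and each kind of vesicle against EV-Control on the right, filled where the adjusted p is under 0.05. In the left panel the TNF points lie above 0 for all 7 genes shown. Of these, IL1RN entered only through its TNF libraries, so its filled TNF point is a description and not a test. In the right panel the filled points are IL1A, IL1B, IL32 and CASP1, all below 0.

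Of the other genes of the pathway, 51 in all, 35 were tested in the direct libraries. In TNF 19 were higher and 4 lower, where 27.5% and 25.3% of all genes were. In IL1b 16 were higher and 11 lower (24% and 22.6% of all genes), in C5a 1 and 6 (11.8% and 10.8%), and in Epinephrine 7 and 3 (13.5% and 11.8%). Their median log2 fold changes were 0.29, 0.08, -0.06 and 0.02. With scaling by total counts the list split was 15 higher and 15 lower in TNF, where 2283 of all genes were called higher and 7783 lower. In IL1b it was 12 and 12, where 2919 and 4637 of all genes were. None of the 6 other family cytokines passed the low-count filter.

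Among receptors and adaptors, 10 of 16 tested were higher in TNF and 2 lower, where 27.5% and 25.3% of all genes were. IL1R1, the signalling receptor for IL-1, rose from 18 to 22.1 CPM in Control to 37.5 to 38.8 in TNF (log2 fold change 0.92 ± 0.0856, adjusted p = 2.03e-11) and to 34.3 to 35.7 in IL1b (0.8 ± 0.0854, adjusted p = 8.83e-10). Its partner chain IL1RAP rose by 0.55 in TNF and 0.58 in IL1b on the log2 scale (adjusted p = 3.64e-08 and 1.59e-08). IL1R1 was also higher in Epinephrine (0.4 ± 0.0872, adjusted p = 0.000637) and lower in C5a (-0.32 ± 0.0919, adjusted p = 0.00865). The C5a call was lost without Control library 3 or C5a library 2 (adjusted p up to 0.0755). IL1RAP was higher in Epinephrine (0.3 ± 0.072, adjusted p = 0.00151) and did not pass in C5a (0.01 ± 0.0732, adjusted p = 0.934). IL1R2, the decoy receptor, was at 0.107 CPM or less in every library. The adaptor MYD88 went from 68.4 to 72.9 CPM in Control to 272 to 276 in TNF (1.97 ± 0.0572, adjusted p = 4.55e-26).

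The kinase gene IRAK2 held 15.4 to 17.8 CPM in Control, 152 to 157 in TNF (3.21 ± 0.0793, adjusted p = 3.79e-28) and 57.1 to 61.5 in IL1b (1.81 ± 0.0814, adjusted p = 1.5e-19). IRAK3, an inhibitor of this signalling step, rose by 1.11 in IL1b and 0.95 in TNF (adjusted p = 2.55e-17 and 6.73e-16). IL18BP, whose product binds and blocks IL-18, rose by 1.7 in TNF (adjusted p = 8.45e-17). In EV-Control, IRAK2 was at 64.9, 25.2 and 17.8 CPM, and its difference from Control (1.08 ± 0.297, adjusted p = 0.0108) was lost without EV-Control library 1 and when the 2 groups were fitted alone (adjusted p up to 0.298).

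Among inflammasome genes, 8 of 14 tested were higher in TNF and 1 lower, where 27.5% and 25.3% of all genes were. In IL1b 5 were higher and 5 lower, where 24% and 22.6% of all genes were. MEFV, which encodes pyrin, rose most in TNF, from 0.32 to 0.634 CPM in Control to 7.87 to 9.18 (3.97 ± 0.277, adjusted p = 9.2e-15). NLRP3, the sensor of the best-known inflammasome, went from 0.562 to 1.11 CPM to 3 to 3.46 in TNF (2.04 ± 0.336, adjusted p = 3.05e-06). PYCARD, the adaptor that links sensors to caspase-1, did not pass in TNF (-0.27 ± 0.133, adjusted p = 0.0912) and was lower in IL1b (-0.47 ± 0.134, adjusted p = 0.00366). MEFV in IL1b (1.1 ± 0.341, adjusted p = 0.00809) was lost without Control library 2 (adjusted p = 0.0632).

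In the vesicle libraries, of 34 genes tested, 3 were higher and 4 lower in EV-TNF (5.9% and 7.42% of all genes), 3 and 7 in EV-IL1b (6.49% and 8.14%) and 5 and 8 in EV-Epinephrine (9.12% and 10.5%). None passed in EV-C5a. None of those called had a log2 fold change over 1 in size, and direct and vesicle counts were not tested against each other. IL1R1 was lower in EV-TNF (-0.44 ± 0.0921, adjusted p = 0.000418), EV-IL1b (-0.4 ± 0.0924, adjusted p = 0.00126) and EV-Epinephrine (-0.29 ± 0.0915, adjusted p = 0.0182). It was itself higher in EV-Control than in Control (0.32 ± 0.0914, adjusted p = 0.0069). That call was lost without Control library 1 or EV-Control library 1 (adjusted p up to 0.168). Means were 20.1 CPM in Control, 25.1 in EV-Control, 18.6 in EV-TNF, 19 in EV-IL1b and 20.5 in EV-Epinephrine. The EV-IL1b call was lost without EV-Control library 1 (adjusted p = 0.0552), which held 29.5 CPM against 23.1 and 22.8 in the others. The EV-Epinephrine call was lost without that library, EV-Epinephrine library 2 or EV-Epinephrine library 3 (adjusted p up to 0.29). MYD88 moved the other way, higher in EV-TNF (0.46 ± 0.0491, adjusted p = 1.47e-10), EV-IL1b (0.43 ± 0.0494, adjusted p = 1e-09) and EV-Epinephrine (0.22 ± 0.0498, adjusted p = 0.000625).

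Of all 15908 genes tested, 3168 were higher in IL1b than in TNF and 3412 lower, or 6504 and 2041 with scaling by total counts. Among the 35 list genes tested, 3 were higher in IL1b and 19 lower, or 8 and 15 with that scaling. The largest differences were those of MEFV (-2.88 ± 0.245, adjusted p = 3.69e-12), NINJ1 (-1.49 ± 0.0611, adjusted p = 1.05e-20), IRAK2 (-1.4 ± 0.0691, adjusted p = 1.24e-18) and IL18BP (-1.25 ± 0.0965, adjusted p = 2.92e-13). MYD88 (-1.22) and NLRP3 (-1.15) were also lower in IL1b (adjusted p = 7.24e-20 and 0.00254). For TNF, the vesicle effect minus the direct effect was -4.39 for MEFV, -4.02 for IRAK2, -2.81 for IL18R1, -2.16 for NINJ1, -2.05 for NLRP3 and -1.68 for PANX1 (adjusted p of 0.000249 or less). NINJ1 and PANX1 encode a membrane rupture protein and a channel. For IL1b it was -3.58 for IL18R1, -2.68 for IRAK2, -1.19 for IL1R1 and -1.14 for IRAK3 (adjusted p of 2.01e-05 or less). For Epinephrine the IL18R1 difference of -2.07 (adjusted p = 0.0113) was lost without EV-Control library 3 (adjusted p = 0.0604).

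**Figure D4:**
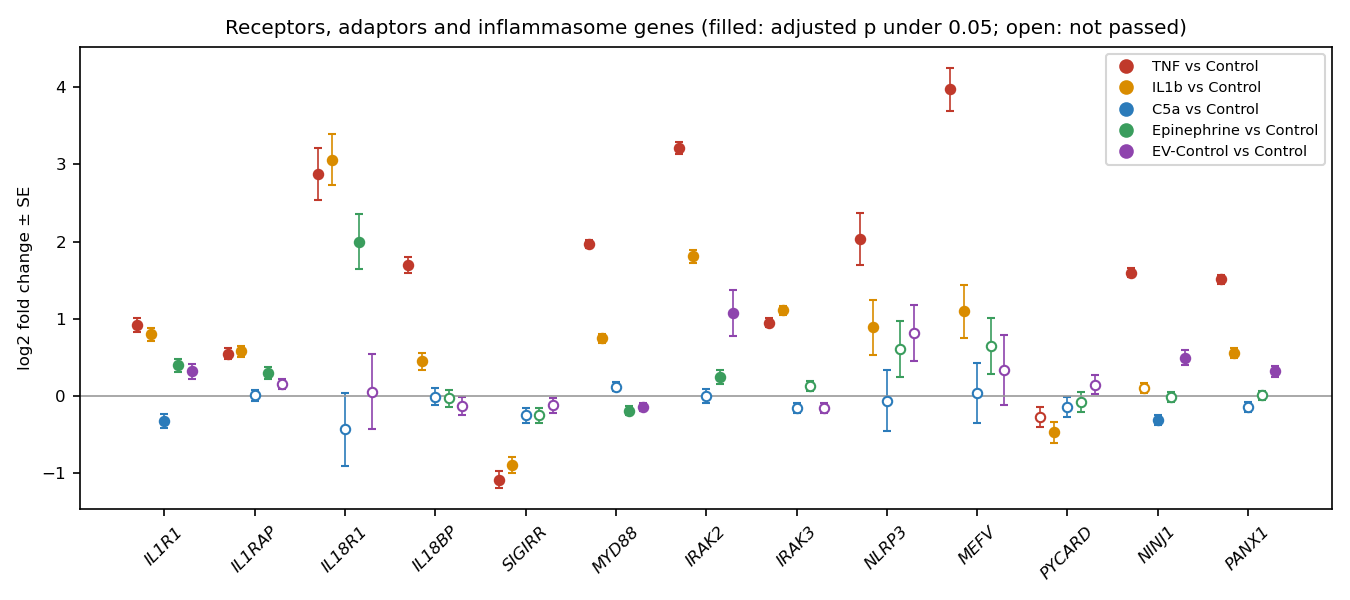
Log2 fold change with its SE (vertical) of 13 receptor, adaptor, inflammasome and release genes for the 4 stimuli and EV-Control, each against Control, filled where the adjusted p is under 0.05. MEFV, IRAK2 and IL18R1 are highest in TNF or IL1b (up to 3.97), and SIGIRR is below 0; SIGIRR was added after its values were seen.

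Across the 10 group means of log2(CPM + 0.5), the genes most like each member among 13508 candidates were sought by Pearson's r. For IL1B these were SAT1 (0.98) and UBAP1 (0.973), and for IL1A HAS2 (0.978) and RHCG (0.963). For IL32 they were SLC2A6 and NFKB1 (both 0.997), for CASP1 TNIP2 (0.99) and THSD1 (0.981), and for IL1RL1 its exon-sharing neighbour IL18R1 (0.984) and AATF (0.975). IL18 gave RPL6P10 (0.95) and PSMB1 (0.949), and IL1RN gave LRRFIP1 (0.985) and EGOT (0.983). Ranked by Spearman's correlation instead, SAT1 stayed among the first 2 genes for IL1B and TNIP2 for CASP1. For IL1A, IL18, IL1RN, IL1RL1 and IL32 the first 2 were other genes, such as CSF3 and SOD2 for IL1A. By Pearson's r, IL1A and IL1B had a value of 0.956 with each other. The points share libraries, scaling and the wide gap between TNF and the other groups, and the values are descriptions.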

How the data were processed

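The deposited table holds raw read counts per gene for 30 hCMEC/D3 libraries, which the authors made. The submitters' processing notes name hg38, STAR, FastQC, R 4.4.1 and DESeq2. The counting tool, its annotation and its use of strand are not given in the sources used here. Lines without a gene identifier (4, with 0.00079% to 0.0016% of the counts) were left out, 3 repeated identifiers were kept once, and 63138 genes remained. Counts were tested with edgeR 4.0.16 in R 4.3.3 (quasi-likelihood, robust, filterByExpr, TMM factors, two-sided). P-values were adjusted by Benjamini-Hochberg over all genes tested, with a threshold of 0.05, and the SE is the absolute log2 fold change over the square root of F. The 15 direct libraries (15908 genes) were fitted together to compare stimuli with Control, and the 15 vesicle libraries (15918 genes) to compare vesicle groups with EV-Control. A joint model of all 30 libraries (16691 genes) gave EV-Control against Control, the differences between vesicle and direct effects, and the CPM values. Lengths and coordinates are from GENCODE 29.

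Totals of 16643961 to 22112326 counts per library set the precision, and counting intervals (95%) cover counting error only. Alternatives were DESeq2 1.42.0, RLE factors, total-count scaling, no filter, a mean of at least 50 counts, a log2 fold change over 1, other sets of libraries, a replicate block and leaving out each library in turn. The tests were checked on simulated data. Tested members are named in each comparison, and IL33 was tested in none. From the pathway lists, IL1R1, IL1R2, IL1RAP, IL18BP, MYD88, IRAK2, IRAK3, PYCARD and NLRP3 are named, with genes called at a log2 fold change over 1, up to 6 by size in a comparison. The members and lists were chosen with earlier results of these data known.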

Additional observations from a re-analysis of the deposited data

Results flagged for a closer look

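For 18 results the effect of a stimulus differed between its vesicle form, taken against EV-Control, and its direct form, taken against Control, when that difference was tested in the fit of all 30 libraries (edgeR's quasi-likelihood test, Benjamini-Hochberg adjusted). Values are the vesicle log2 fold change minus the direct one.

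For TNF, 6 members differed, in a test that 44.7% of all genes passed. The difference was -5.11 for IL1A (adjusted p = 2.98e-13), -4.94 for IL1B (1.91e-15), -3.49 for IL1RL1 (1.36e-11), -3.29 for IL32 (1.11e-43), -1.16 for IL18 (0.00943) and -0.75 for CASP1 (6.13e-13). For IL1b, 5 members differed, against 35.2% of all genes. The difference was -3.62 for IL1RL1 (adjusted p = 5.59e-12), -3.55 for IL1A (2.72e-09), -3.48 for IL1B (3.97e-12), -1.61 for IL32 (1e-26) and -0.21 for CASP1 (0.029).

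For Epinephrine, 5 members differed, against 24.2% of all genes. The difference was -3.76 for IL1A (adjusted p = 4.12e-09), -3.74 for IL1B (5.61e-12), -2.48 for IL1RL1 (3.7e-07), -0.4 for CASP1 (4.39e-05) and -0.2 for IL32 (0.0416). For C5a, IL1A (1.32, adjusted p = 0.0307) and IL1B (1.22, adjusted p = 0.000901) differed, against 11.9% of all genes. The direct C5a effect was negative for both (-1.72 for IL1A and -1.21 for IL1B), while EV-C5a did not differ from EV-Control past the threshold (-0.41 and 0). The other tested members did not pass for C5a (IL18 0.3, CASP1 -0.01, IL1RL1 0.27 and IL32 0.12), and IL18 did not pass for IL1b (-0.28) or Epinephrine (-0.65). IL1A and IL1B were themselves higher in EV-Control than in Control, and both control groups enter every one of these differences.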

How the results depend on the processing

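Of 1325 tests of a member under an alternative, 1267 kept their direction and their side of the threshold, 31 lost the call, 3 gained it and 24 changed sign, all 24 in 8 results that were called in neither fit. With 1 library left out these ranged from -1.25 to 0.82 for IL1RN in IL1b, -1.25 to 0.49 for IL1RN, -0.49 to 0.07 for IL18 and -0.4 to 0.22 for IL1RL1 in C5a, -0.22 to 0.14 for IL18 and -0.21 to 0.4 for IL1RL1 in EV-IL1b, -0.08 to 0.07 for IL1B in EV-C5a, and -0.06 to 0.01 for CASP1 in the C5a difference. IL1RL1 in C5a was at -0.01 with a mean of at least 50 counts and 0 with all 30 libraries, and CASP1 in the C5a difference at 0 with that mean. Same-numbered libraries of different groups did not deviate together (correlations of -0.153 to 0.122, 3 of 135 over 0.1). Libraries with other numbers gave -0.167 to 0.194, with 5 of 270 over 0.1. No shared effect of the numbers was seen, and whether same-numbered libraries were prepared together cannot be told from these values. With the replicate block all 89 member results kept their call, and TNF against Control called 8339 genes in place of 8388. These tallies of member tests include IL1RN, which passed the low-count filter only through TNF. Its results in TNF and in IL1b against TNF are therefore descriptions, and their stability is no support. With a log2 fold change over 1 required, which leaves fewer genes by construction, 2037 genes were called in TNF, 1118 in IL1b, 330 in C5a, 313 in Epinephrine, 1124 in IL1b against TNF, 208 in EV-TNF, 219 in EV-IL1b, 0 in EV-C5a, 368 in EV-Epinephrine and 372 in EV-Control, and 2260, 1188, 264 and 768 for vesicle minus direct effects of TNF, IL1b, C5a and Epinephrine. The number of members called fell most, in proportion, in Epinephrine (to 3), EV-TNF (to 1), EV-IL1b (to 1), EV-Epinephrine (to 2) and the Epinephrine difference (to 3). Members also stayed called elsewhere. IL1A and IL1B did so in TNF, IL1b, C5a, EV-Control, IL1b against TNF and the differences for TNF, IL1b and C5a. The 8 genes called in EV-C5a became 73 with no filter, 5 with total-count scaling, and 3 each with a mean of at least 50 counts, all 30 libraries or only the 2 groups, and the cause was not tested. Leaving out 1 library gave 2 to 175 genes and 0 to 1 members in EV-C5a (1 without EV-Control library 3), 3 to 5 members in Epinephrine and 1 to 2 for the C5a difference, which fell to 1 member with only its own groups. Calls lost for vesicle minus direct effects were CASP1 for IL1b (8 of 19 alternatives, adjusted p up to 0.226), IL1A for C5a (6, up to 0.117) and IL32 for Epinephrine (10, up to 0.158). Total-count CPM moved 9 of 80 group means by over 1 SD. Depth limits IL33 and IL1RN, whose counts are mostly at or under 3 per library.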
